A study of Mus musculus with 20 samples.

Results

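Bone marrow-derived macrophages (BMDM) transcribed the genes of the phagocyte NADPH oxidase at high levels, and 4 of the 6 subunit genes described here were higher after 24 h in high glucose than in normal glucose. The 6 genes, Cybb, Cyba, Ncf1, Ncf4, Rac1 and Rac2, were chosen by name and make up 6 of the 14456 genes in the table of normalized counts. All 6 passed the filter on low values, which asked for 10 or more normalized counts on average. The BMDM were grown from the marrow of male C57BL/6J mice of 8 to 12 weeks with M-CSF, the growth factor that drives marrow cells to become macrophages. In the glucose experiment, BMDM were kept in 25 mM glucose (HG, n = 4 libraries), while the NG group (n = 4) had 5.5 mM glucose and 19.5 mM mannitol, a sugar alcohol that evens out the osmolarity. In the exosome experiment, naive BMDM received PBS (n = 4) or 2000000000 particles per ml of exosomes released by BMDM in normal glucose (BMDM-NG-exo, n = 4) or in high glucose (BMDM-HG-exo, n = 4) for 24 h. No group is labelled with a genetic change. The libraries given exosomes come from separate exosome preparations. The sources used here do not state whether the recipient BMDM came from separate mice. Whether the glucose libraries of a group come from separate cultures is not stated in the sources used here, so that p-values measure the spread between these libraries, which may be technical.

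The phagocyte NADPH oxidase moves electrons from cytosolic NADPH across a membrane onto oxygen and so makes superoxide. Its core is a heterodimer in the membrane, formed by the catalytic subunit NOX2 (gene Cybb, gp91phox) and its stabilizing partner p22phox (gene Cyba). In resting cells the organizer p47phox (Ncf1) and the adaptor p40phox (Ncf4) stay in the cytosol. They join the core once the cell is stimulated, together with a Rac GTPase loaded with GTP. Rac2 is the form typical of blood cells, and Rac1 is present in nearly all cells. The oxidase is known in macrophages for the killing of engulfed microbes and for redox signalling, and its regulation involves phosphorylation and assembly as well as transcription.

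The upstream sequences of 3 of the 6 genes were at hand in RefSeq (GRCm38.p6), and they are shown because Cybb and Ncf1 were called higher in HG than in NG while Cyba was not. Each run covers the 250 bases before the RefSeq start on the minus strand, 5′ to 3′, at chrX:9469325-9469574 for Cybb, chr5:134229626-134229875 for Ncf1 and chr8:122432941-122433190 for Cyba. The RefSeq start of Cybb (9469324) is also a transcript start in the GENCODE M21 annotation, in which 1 of 5 Cybb transcripts begins 18447 bases further upstream. Capitals mark letters that fit a searched motif.
Cybb: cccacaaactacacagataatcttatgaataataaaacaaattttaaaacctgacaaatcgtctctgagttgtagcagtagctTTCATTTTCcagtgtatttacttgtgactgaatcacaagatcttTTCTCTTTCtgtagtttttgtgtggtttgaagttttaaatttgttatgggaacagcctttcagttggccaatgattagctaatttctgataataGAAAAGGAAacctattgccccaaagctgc
Ncf1: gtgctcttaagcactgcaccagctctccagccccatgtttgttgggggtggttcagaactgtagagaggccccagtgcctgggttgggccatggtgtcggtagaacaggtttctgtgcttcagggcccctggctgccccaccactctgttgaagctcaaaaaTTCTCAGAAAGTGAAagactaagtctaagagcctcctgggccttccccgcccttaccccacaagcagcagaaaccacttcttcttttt
Cyba: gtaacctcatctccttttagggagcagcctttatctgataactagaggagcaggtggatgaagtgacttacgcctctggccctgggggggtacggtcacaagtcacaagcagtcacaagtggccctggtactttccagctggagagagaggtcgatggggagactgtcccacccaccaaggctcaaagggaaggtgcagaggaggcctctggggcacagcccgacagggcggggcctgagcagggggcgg

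The searched motifs were an element of interferon regulatory factors (GAAANNGAA), the interferon gamma-activated site of STAT proteins (TTCNNNGAA), the box of the myeloid factor PU.1 (GAGGAA), the antioxidant response element (TGACNNNGC) and a C/EBP site (TTGCNNAA), on both strands of the 250 bases before and 50 bases after the start. The interferon regulatory factor element occurred at 3 places of the Cybb sequence and at 1 place of the Ncf1 sequence. In Ncf1 it shared letters with the only activated site found in the 3 windows. These motifs were held by 8.56% and 8.30% of the 32851 RefSeq promoters of the same length. The PU.1 box, held by 28.3% of the promoters, was found once, in Cybb, 9 to 14 bases after the start on the other strand (chrX:9469298-9469327), within the run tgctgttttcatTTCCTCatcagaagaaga. The antioxidant response element (12.4% of promoters) and the C/EBP site (10.8%) occurred in none of the 3 windows, and Cyba held none of the 5 motifs. These are matches of letters, chosen with the results known. Ncf4, Rac1 and Rac2 had no entry among the promoters.

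Per kb of exon, the 6 genes ranked between 59 and 599 among 11583 protein-coding genes, averaged over the 20 libraries. The membrane subunit genes were the highest, at 11287 normalized counts per kb for Cyba and 8601 for Cybb. The organizer gene Ncf1 followed at 6007. The median protein-coding gene had 202 normalized counts per kb, so that even Ncf4, the lowest of the 6 at 1933, lay above 94.8% of protein-coding genes. The GTPase genes stood between, with 2697 normalized counts per kb for Rac1 and 2399 for Rac2.

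**Figure D1:**
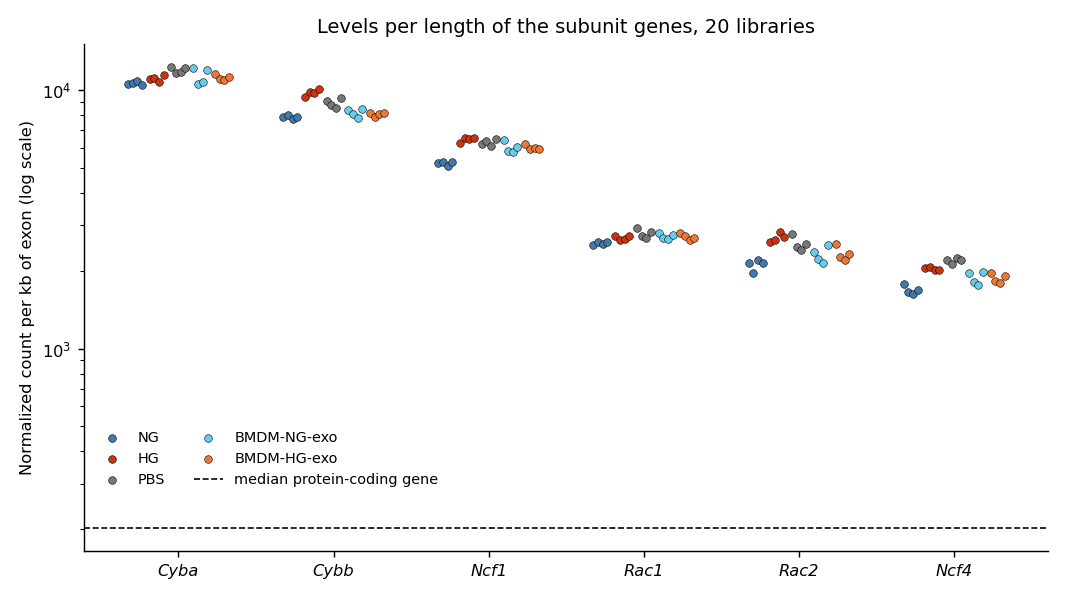
Normalized counts per kb of exon (vertical axis, log scale) of the 6 genes, 1 point per library and 1 colour per group, with the dashed line at the median protein-coding gene (202). Cyba, Cybb and Ncf1 form separate levels, while the libraries of Rac2 overlap with those of Rac1 and of Ncf4, which lie apart from each other.

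The order of Cyba, Cybb and Ncf1 held in every library, since Cyba stayed between 10537 and 12323 normalized counts per kb, Cybb between 7781 and 10167 and Ncf1 between 5101 and 6563. Rac1 ran from 2510 to 2929, Rac2 from 1961 to 2819 and Ncf4 from 1623 to 2246 normalized counts per kb. Rac2 thus overlapped with both of its neighbours, while every Rac1 library lay above every Ncf4 library. Scaled to the longest transcript instead of all exons, Ncf4 (2668) stood above Rac2 (2450). The reads behind these values numbered at least 2857 per library (Ncf4) and at most 61344 (Cybb). In the GENCODE M21 annotation (GRCm38), Cybb lies on chromosome X from 9435252 to 9487771, Cyba on chromosome 8 from 122424776 to 122432930 and Ncf1 on chromosome 5 from 134220053 to 134229625, all on the minus strand. Rac1 (chromosome 5, 143503634 to 143528036) and Rac2 (chromosome 15, 78559167 to 78572783) are also on the minus strand, and Ncf4 lies on the plus strand of chromosome 15 from 78244801 to 78262580. Exons of Ncf1 overlap those of Gtf2ird2, and exons of Rac1 those of Daglb, each on the opposite strand, and the authors counted with strand. None of the 6 shared a stretch of 100 bases with a transcript of another annotated gene. Stretches of 50 bases were shared by Rac2 with 16 other genes, by Cyba with 8 and by Ncf1 with 1. The largest share with any 1 gene was 1.75% of the stretches, for Cyba.

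The libraries held between 34016445 and 56310712 reads (median 43311931). Macrophage markers were abundant, with 620993 to 868348 normalized counts for the sum of 7 genes, most of it from the lysozyme gene Lyz2. Of 10 neutrophil markers, which matter here since neutrophils use the same oxidase, S100a8, S100a9, Mpo, Ltf and Ngp were in the table, with a sum of 165 to 378 normalized counts per library, and Ly6g, Elane, Camp, Retnlg and Cxcr2 were not. None of 5 dendritic cell and none of 4 T and NK cell markers was in the table, 1 of 4 B cell markers (Ighm) was, at 2119 to 2973 normalized counts, and 2 of 4 fibroblast markers (Col1a1 and Col3a1) were, with a sum of 68.4 to 229.

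The glucose experiment compared HG with NG. Cybb, Ncf1, Ncf4 and Rac2 were higher in HG, by 1.21- to 1.27-fold, and Cyba and Rac1 did not pass the test. The calls thus covered 4 of 6 genes, where 7.74% of the 14425 genes tested were called higher and 13.3% were called in either direction. The test was limma's, with the variance modelled as a function of the level, on the log2 scale after adding 1 to each normalized count, and a gene was called at a Benjamini-Hochberg adjusted p under 0.05 over all genes tested. Log2 fold changes are on that scale. In bulk RNA, a higher share of cells with a transcript and more of it per cell cannot be told apart.

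Cybb, the catalytic subunit, had 45193, 45882, 46019 and 46756 normalized counts in the NG libraries and 54761, 57003, 57144 and 59052 in the HG libraries. Each HG library lay above each NG library, and both groups varied little (coefficients of variation of 1.39% and 3.08%). The difference of 0.31 on the log2 scale, or 1.24-fold, had a standard error of 0.031 and an adjusted p of 3.13e-09.

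Cyba, the stabilizing partner of Cybb, had 10947, 11039, 11058 and 11278 normalized counts in NG and 11253, 11477, 11594 and 11961 in HG. The groups overlapped, since the lowest HG library lay below the highest NG library. The difference of 0.06 on the log2 scale did not pass the test (adjusted p = 0.266), and its 95% interval ran from -0.0081 to 0.13. The interval of Cybb, from 0.25 to 0.37, lay wholly above it.

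The organizer gene Ncf1 had 18684, 19196, 19334 and 19408 normalized counts in NG and 22983, 23814, 24017 and 24039 in HG. The groups stood apart, and the difference of 0.31 on the log2 scale (standard error 0.032, adjusted p = 6.33e-09) was close in size to that of Cybb. The adaptor gene Ncf4, at a lower level, had 3279, 3361, 3398 and 3587 normalized counts in NG and 4064, 4079, 4145 and 4171 in HG. It too showed no overlap, and it rose by 0.27 on the log2 scale (standard error 0.044, adjusted p = 1.90e-05).

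The GTPase genes differed from each other. Rac2 had 6085, 6637, 6660 and 6854 normalized counts in NG and 8031, 8146, 8392 and 8748 in HG, the highest change of the 6 genes at 0.35 on the log2 scale (standard error 0.041, adjusted p = 8.27e-08). Rac1 had 11283 to 11664 normalized counts in NG and 11895 to 12291 in HG. Its libraries also stood apart by group, but the log2 fold change was 0.07 (95% interval 0.0049 to 0.14) and did not pass the test (adjusted p = 0.161). In all, the HG libraries lay wholly above the NG libraries for 5 of the 6 genes, and for 9.18% of all genes tested. The calls of Cybb, Ncf1, Ncf4 and Rac2 also held when any 1 of the 8 libraries was left out. With quantile normalization, the log2 fold change of Cybb was smaller, at 0.18 (adjusted p = 2.47e-05), and the call held.

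**Figure D2:**
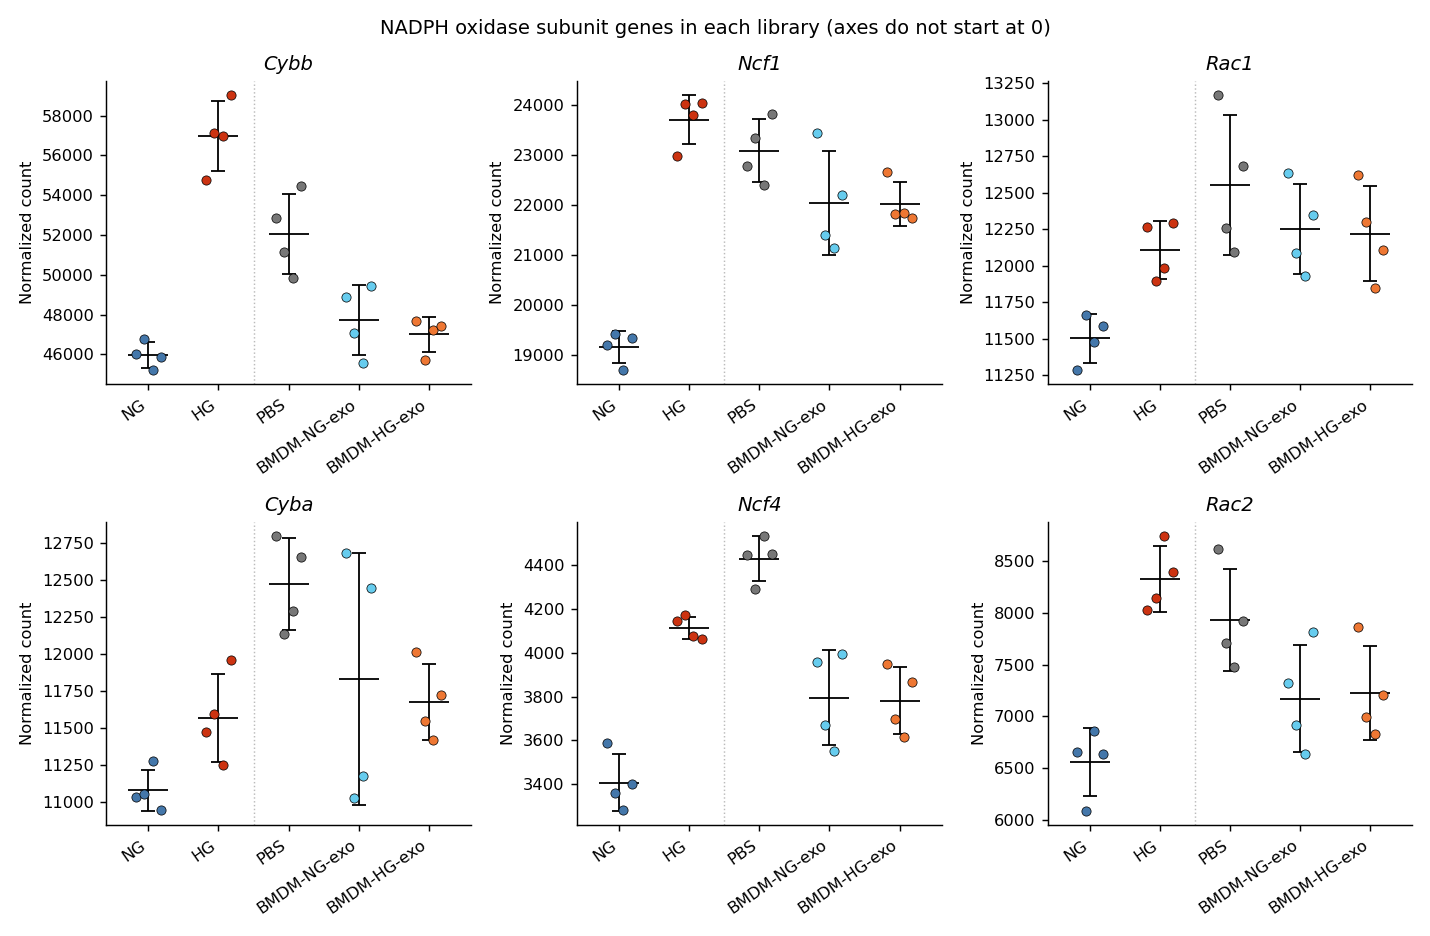
Normalized counts (vertical axes, which do not start at 0) of each gene in the 20 libraries, with the mean and SD of each group (n = 4) and a dotted line between the 2 experiments. The HG libraries lie above the NG libraries except for Cyba, and PBS lies above both exosome groups for Cybb and Ncf4.

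Ratios within a library do not depend on its scaling. Per kb, the ratio of Cybb to Cyba was 0.742 ± 0.017 (SD, n = 4) in NG and 0.881 ± 0.022 (SD, n = 4) in HG, and the highest NG ratio (0.756) lay below the lowest HG ratio (0.854). The ratio of Rac2 to Rac1 was 0.827 ± 0.049 (SD, n = 4) in NG and 0.997 ± 0.045 (SD, n = 4) in HG, again without overlap. In the membrane pair and in the GTPase pair, the called gene thus rose against the one that was not called. Cybb over Ncf1 stayed at 1.51 ± 0.012 (SD, n = 4) in NG and 1.52 ± 0.023 (SD, n = 4) in HG. Ncf1 over Ncf4 was 3.10 ± 0.10 (SD, n = 4) in NG and 3.18 ± 0.088 (SD, n = 4) in HG, with overlapping libraries. No test was made of these ratios, which use the counts behind the calls and in part restate them.

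**Figure D3:**
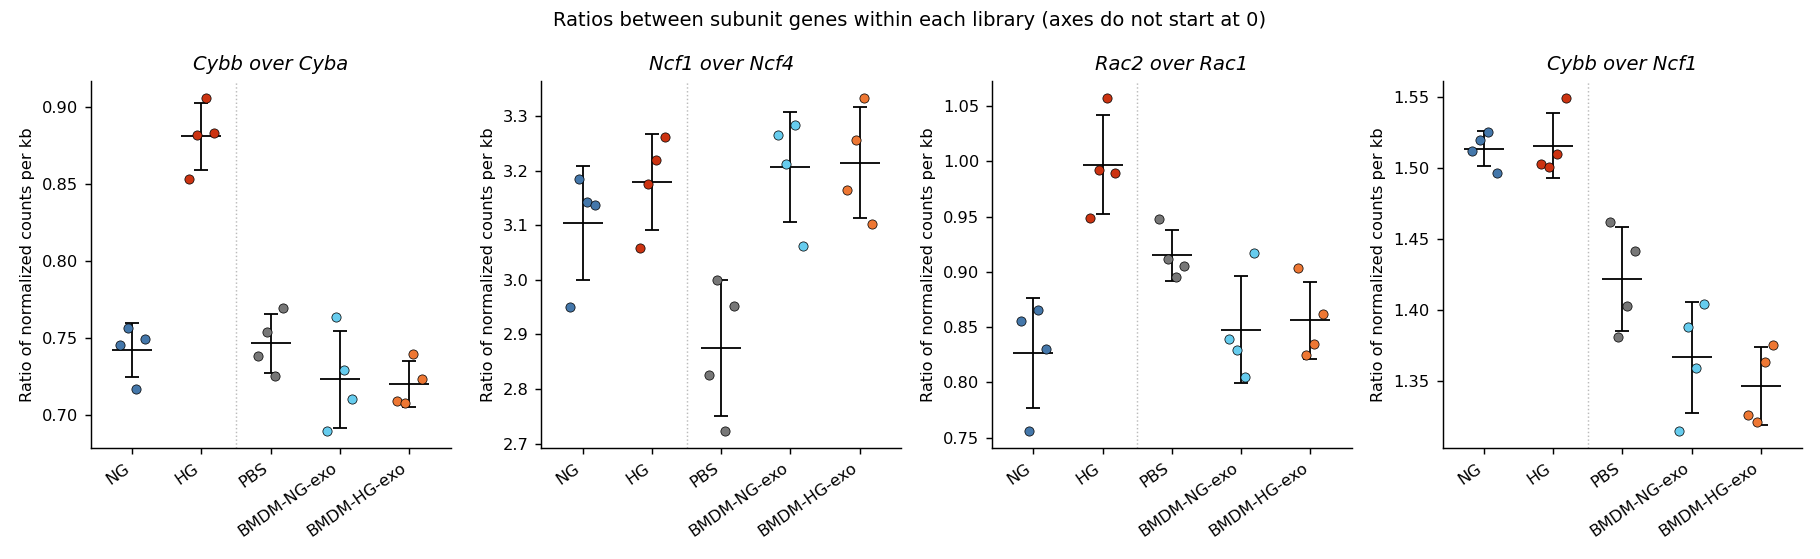
Ratios of normalized counts per kb between pairs of subunit genes in each library (vertical axes, which do not start at 0), with the mean and SD of each group (n = 4). Cybb over Cyba and Rac2 over Rac1 are higher in HG than in NG, Cybb over Ncf1 is not, and Ncf1 over Ncf4 is lowest in PBS.

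The exosome experiment asked which transcripts of recipient BMDM differ after exposure to macrophage exosomes. In BMDM-HG-exo against BMDM-NG-exo, 0 of 6 genes were called by limma at an adjusted p under 0.05 and a log2 fold change beyond ±0.15, and 0 had an unadjusted p under 0.05. Among all 14413 genes tested, 2 were called (0.0139%). With the date as a block 22 were called, and by DESeq2 also 22. The log2 fold changes lay between -0.02 (Cybb) and 0.01 (Rac2), and the 95% intervals between -0.098 and 0.11. For Cybb the interval ran from -0.085 to 0.042, so that a rise of the size seen in HG lay outside it. The libraries of both groups overlapped for all 6 genes. Groups without overlap were found for 3.86% of all genes. Against PBS and BMDM-NG-exo combined, BMDM-HG-exo also had 0 of 6 genes called (0.201% of all genes), with log2 fold changes from -0.12 (Ncf4, adjusted p = 0.462) to -0.02 (Rac1), and the libraries again overlapped for all 6 (1.17% of all genes had no overlap). Here Cybb and Ncf4 had unadjusted p-values of 0.029 and 0.045. By edgeR and DESeq2 both comparisons also gave 0 of 6.

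The change in HG and that with BMDM-HG-exo against BMDM-NG-exo were set against each other in 1 fit of all 20 libraries. The difference of both log2 fold changes was 0.33 for Cybb (standard error 0.044, adjusted p = 1.03e-06), 0.31 for Ncf1 (standard error 0.045, adjusted p = 7.26e-06) and 0.33 for Rac2 (standard error 0.067, adjusted p = 0.0011), all called. Ncf4, at 0.28 (standard error 0.062, adjusted p = 0.00355), was called as well, but with the library number as a block its adjusted p was 0.0835, and with scaling to the total reads 0.069. Rac2 missed the threshold without the trend of the variance (adjusted p = 0.054). Cyba and Rac1 had differences of 0.08 (adjusted p = 0.474 and 0.421). The 4 calls of 6 stand beside 4.74% of 14449 genes called in this contrast, and 3.27% called in the same direction. The 2 experiments were separate, so that this contrast also holds whatever else set them apart.

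Against PBS, Ncf4 was lower with either kind of exosome. The adaptor gene had 4293, 4446, 4450 and 4537 normalized counts in PBS. It had 3550, 3672, 3960 and 3997 with BMDM-NG-exo, and 3613, 3697, 3865 and 3950 with BMDM-HG-exo. Every exosome library lay below every PBS library, and libraries of the same date differed in the same direction on 4 of 4 dates, by -0.35 to -0.15 on the log2 scale with BMDM-NG-exo and by -0.33 to -0.17 with BMDM-HG-exo. The log2 fold changes were -0.23 with BMDM-NG-exo (standard error 0.046, adjusted p = 0.00183) and -0.23 with BMDM-HG-exo (standard error 0.046, adjusted p = 0.000941). Without the trend of the variance, the first had an adjusted p of 0.0886 and the second of 0.0462. Both comparisons use the same PBS libraries.

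Ncf4 was the only one of the 6 genes called against PBS, while 3% of the 14413 genes were called with BMDM-NG-exo (2.11% lower) and 4.84% with BMDM-HG-exo (3.08% lower). Cybb came close. It had 49841, 51145, 52842 and 54454 normalized counts in PBS, 45577, 47088, 48899 and 49428 with BMDM-NG-exo, and 45719, 47225, 47438 and 47657 with BMDM-HG-exo. The groups with exosomes lay below PBS without overlap, as for Ncf4, and on 4 of 4 dates. Groups wholly below PBS were found for 4.63% of all genes with BMDM-NG-exo and for 5.59% with BMDM-HG-exo. The log2 fold changes of -0.12 (adjusted p = 0.0153) and -0.147 (adjusted p = 0.00187) passed the p threshold, as did 2.32% and 3.43% of all genes in this direction, but not the limit of 0.15 on the fold change. Cybb missed the p threshold in both comparisons without the trend of the variance (adjusted p = 0.252 and 0.114). When single libraries were left out, its highest adjusted p was 0.104 with BMDM-NG-exo and 0.0202 with BMDM-HG-exo.

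Rac2 followed the same direction, with log2 fold changes of -0.146 (adjusted p = 0.102) and -0.13 (adjusted p = 0.106), and was lower on 4 of 4 dates in both. With the date as a block its adjusted p-values were 0.0115 and 0.0156, still without reaching the fold limit. Its level moved with the date: on 01-08-20 the PBS and BMDM-HG-exo libraries had the highest counts of their groups (8619 and 7869), and on 12-18-19 all 3 groups had their lowest (7472, 6632 and 6827). Rac2 crossed both limits in the BMDM-NG-exo comparison without the PBS library of 12-18-19 (-0.17, adjusted p = 0.0474) or without the BMDM-NG-exo library of 01-15-20 (-0.19, adjusted p = 0.0222). In the BMDM-HG-exo comparison it did so without the PBS library of 12-18-19 (-0.16, adjusted p = 0.0475) or without the BMDM-HG-exo library of 01-08-20 (-0.18, adjusted p = 0.0269). Cybb also crossed the fold limit there in these 2 fits, and without the PBS library of 12-11-19 or the BMDM-HG-exo library of 01-15-20.

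Cyba, Ncf1 and Rac1 were not called against PBS. Cyba had log2 fold changes of -0.08 (95% interval -0.16 to 0.0017) and -0.10 (-0.17 to -0.015), and its BMDM-HG-exo libraries, at 11418 to 12016 normalized counts, lay below the PBS libraries, at 12138 to 12804. With BMDM-NG-exo, Cyba varied more between libraries than elsewhere, at 11031 on 12-11-19 and 11181 on 12-18-19 and at 12447 and 12684 on the other dates. Ncf1 had log2 fold changes of -0.07 in both comparisons (intervals -0.14 to -0.00021 and -0.14 to -0.0010), and Rac1 of -0.03 and -0.04. The ratio of Ncf1 to Ncf4 per kb was 2.88 ± 0.13 (SD, n = 4) in PBS. The BMDM-NG-exo libraries had 3.21 ± 0.10 (SD, n = 4) and the BMDM-HG-exo libraries also 3.21 ± 0.10 (SD, n = 4), and no exosome library reached down to the PBS range. Macrophage markers moved as well. The genes of the Fc gamma receptor Fcgr1, the M-CSF receptor Csf1r, the surface protein Adgre1 and the integrin Itgam were called lower with both exosomes. These were 4 of 7 markers, where 2.11% and 3.08% of all genes were called lower. Cd68 and Mertk went the other way, without a call. Cd68 averaged 28744 normalized counts in PBS, 30757 with BMDM-NG-exo and 30302 with BMDM-HG-exo, and Mertk 5689, 6045 and 5836. The summed level of the 7 was 785780 to 831767 in PBS, 710680 to 766373 with BMDM-NG-exo and 727963 to 751990 with BMDM-HG-exo, and the part of this in the lower Ncf4 was not tested.

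**Figure D4:**
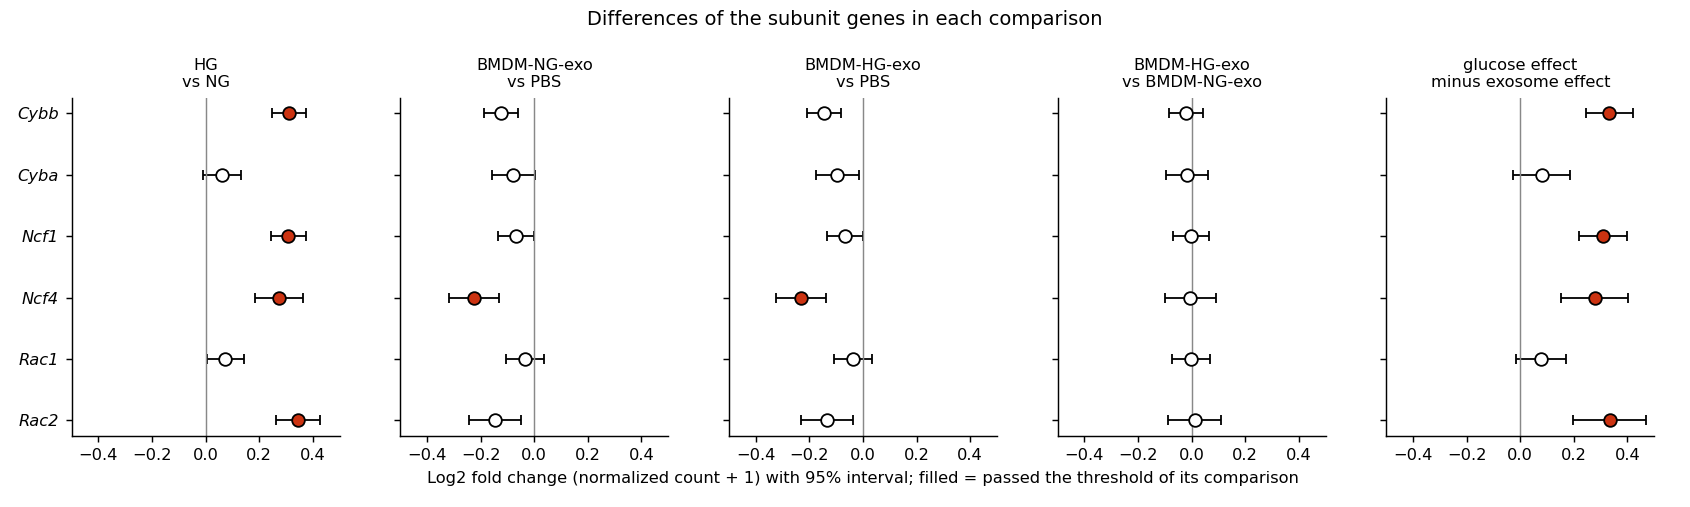
Log2 fold changes of the normalized count plus 1 (horizontal axes) with 95% intervals from limma for the 6 genes in 5 contrasts, filled where the gene passed the threshold. Cybb, Ncf1, Ncf4 and Rac2 are filled in HG vs NG and in the difference of effects, only Ncf4 is filled against PBS, and none is filled between the exosome groups.

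Other genes of the pathway were read from lists written by hand. Enzymes that form cytosolic NADPH, the electron donor of the oxidase, were called higher in HG in 4 of 4 cases: Pgd (log2 fold change 0.49) and G6pdx (0.29) of the pentose phosphate pathway, Idh1 (0.46) and the malic enzyme gene Me1 (0.56). Of all genes tested, 7.74% were called higher. The median of this list was 0.48, and that over all genes tested was -0.0031. Of the enzymes that remove superoxide and hydrogen peroxide, catalase (Cat, 0.58) and mitochondrial superoxide dismutase (Sod2, 0.37) were higher and Sod1 had 0.04 (adjusted p = 0.637). With BMDM-HG-exo against PBS, Cat was higher (0.17, adjusted p = 0.00202) and Sod2 lower (-0.26, adjusted p = 0.0043), and no NADPH enzyme was called in any exosome comparison.

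Cybc1, a chaperone needed for the NOX2 dimer to mature, was higher in HG (0.21, adjusted p = 0.00561). The proton channel gene Hvcn1, which carries the charge that balances the electron flow, had 0.14 (adjusted p = 0.0896), Nrros, which promotes the breakdown of NOX2, -0.02 and the autophagy regulator gene Rubcn -0.04. Of the other NADPH oxidase genes, Noxo1 was in the table, with 41.1 to 94.7 normalized counts and no call.

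Transcription factors known to act on phox genes were higher in HG in 5 of 11 tested cases (7.74% of all genes), and 0 were lower (5.53% of all genes). Cebpb (0.38), Cux1 (0.27), Bcl6 (0.32), Spi1 (0.23) and Irf1 (0.19) were called. The median of the list was 0.04, and that over all genes tested was -0.0031. Cebpa (-0.11, adjusted p = 0.113) and Cebpe (-1.34, adjusted p = 0.0575, at a low level) had negative values without a call. Spi1 encodes PU.1, Irf1 acts downstream of interferons, and Cux1 and Bcl6 are known as repressors. Against PBS, Irf1 (-0.30), Spi1 (-0.17) and Cebpb (-0.19) were lower with BMDM-HG-exo, 3 of 11 (3.08% of all genes), while 0 of 11 were called with BMDM-NG-exo (3% of all genes) and 0 of 11 between the exosome groups. In the difference between the glucose and the exosome change, Cebpb (0.41), Spi1 (0.27), Cux1 (0.25), Bcl6 (0.27) and Irf1 (0.32) were called higher. These were 5 of 11, where 3.27% of all genes were called higher. Of the 4 NADPH enzyme genes, Idh1 (0.46), Pgd (0.45) and G6pdx (0.28) were also called higher, and Me1 (0.52) was not called. Other lists had calls too. Higher were 2 of 3 genes of superoxide removal, 5 of 32 of oxidase activation and 3 of 7 macrophage markers. The last 2 lists each had 1 gene called lower, as were 213 of all 14449 genes.

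Among 32 genes that switch the oxidase or its GTPase on or off, 9 were higher and 2 lower in HG, where 7.74% of all genes were called higher and 5.53% lower, and the median of the list was 0.03. The protein kinase C genes Prkcb (0.30) and Prkcd (0.24), which phosphorylate p47phox, the lipase gene Plcg2 (0.27) and the Rac exchange factor gene Prex1 (0.19) were higher. Abr, a GTPase-activating protein that turns Rac off, was also higher (0.23), while Arhgap25, another one, was lower (-0.20). The other lower gene, named after its values were seen, was the kinase gene Prkca (-0.92, adjusted p = 0.0234), at a low level. With BMDM-HG-exo against PBS, 1 of the 32 was called, the lipid kinase gene Pik3cd (-0.16), which was lower. This is about the share over all genes, of which 3.08% were called lower. In HG, macrophage markers went both ways. Lyz2 (0.42), Csf1r (0.35) and Adgre1 (0.10) were higher and Mertk (-0.40) and Cd68 (-0.15) lower, and their summed level was 620993 to 695733 in NG and 798427 to 868348 in HG. The summed neutrophil markers, 254 to 378 in NG and 211 to 258 in HG, were not higher in HG. The part of either in the changes of the 6 genes was not tested.

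**Figure D5:**
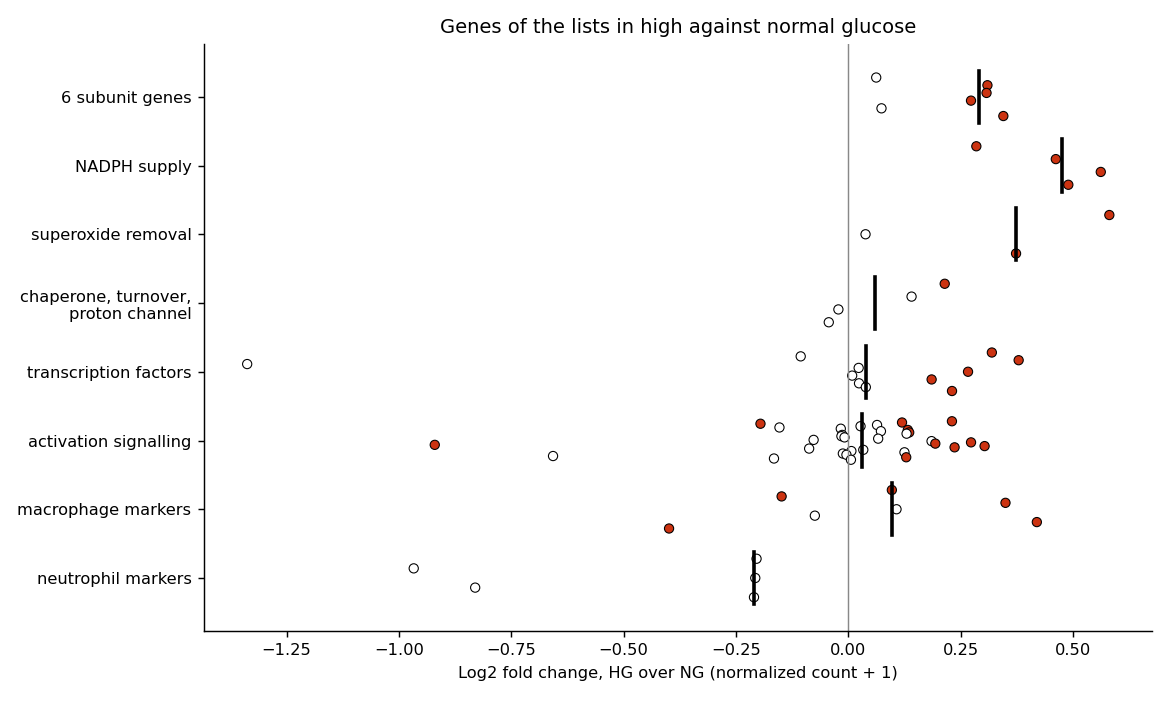
Log2 fold changes in HG against NG (horizontal axis) of the genes of 8 lists, 1 point per gene, filled where called, with a vertical bar at the median of each list. All 4 NADPH-forming enzyme genes are called higher, while the list of activation signalling has a median near 0.

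Genes with a pattern like that of each member were ranked by Pearson's r over the 20 libraries after the mean of each experiment was removed, among the 11547 genes that averaged 50 or more normalized counts in both experiments. The libraries share their groups and their scaling, so that r describes the pattern and has no p. Cybb was nearest to Mapkapk2 (r = 0.971), Rassf4 (0.957) and Hpgd (0.956), and Ncf1 ranked 5 in that order (0.949). Ncf1 was nearest to Fxyd2 (0.966), 2510009E07Rik (0.955) and the NADPH enzyme gene G6pdx (0.954). Ncf4 was nearest to Cxcl16 (0.961), the macrophage marker Csf1r (0.955) and Parp12 (0.948). Rac2 was nearest to Hpgd (0.935), Xbp1 (0.931) and Irf5 (0.930).

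The 2 genes without a call in HG had neighbours at lower r. The difference between HG and NG stays in these values, so that r in part restates the calls. Cyba was nearest to Poldip3 (r = 0.835), Setd1b (0.834) and Sh3bp1 (0.833), and Rac1 to Psmc1 (0.882), Ap5b1 (0.859) and Ddx39 (0.841). Between the members, r ran from 0.591 (Cyba with Ncf1) to 0.949 (Cybb with Ncf1). Cyba had an r of 0.670 with Cybb, its partner in the membrane.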

How the data were processed

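The authors prepared stranded total RNA libraries, removed ribosomal cDNA, sequenced them in pairs on a NovaSeq, trimmed with cutadapt, mapped to GRCm38 with STAR and counted per gene with FeatureCounts, in which read 2 gave the sense strand. The counting annotation is not given in the sources used here. The deposited signal is the count divided by the DESeq2 size factor of each library. Dividing each column by its smallest step gave whole reads for 100% of values (tolerance 0.01). The step is within 0.01 of 1 in the columns of the PBS library of 01-15-20 and the BMDM-HG-exo library of 01-08-20, whose values alone do not show whether they were scaled. The recovered reads gave the totals and the edgeR and DESeq2 alternatives. No column lacked a sample.

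Normalized counts were raised by 1, put on the log2 scale and tested in limma 3.58.1 under R 4.3.3 (lmFit, eBayes with trend, two-sided) over genes averaging 10 or more, with Benjamini-Hochberg adjustment, and called at an adjusted p under 0.05, with a log2 fold change beyond ±0.15 as a further condition in the exosome comparisons. Alternatives varied the pseudocount (0.5, 5), the filter (none, 50), the scaling (TMM, quantiles, total reads), the trend, array weights, the fold limit, the libraries fitted and the tool (edgeR 4.0.16, DESeq2 1.42.0), blocked on the library number or date, and left out each library. Libraries of a group differed by more than sampling noise (chi-square per degree of freedom 5.23 to 42.3 over 30 pairs). The date in the labels pairs the exosome libraries across groups. Across genes, the deviations of same-date libraries from their group means had a mean r of 0.012 (12 pairs). The mean of -0.004 for 36 other pairs is no separate baseline, since the deviations sum to 0 within a group. Single genes can follow the date more closely, as described for Rac2. Glucose libraries share only a number (1 and 6 in both groups).

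The members, the gene lists, the motifs and the comparisons were chosen with earlier results of these data known. Genes named by rule are the 6 members, up to 6 called genes of each list in a comparison, those with the smallest p, and the 3 genes nearest to each member. Outside the rule, Sod1, Hvcn1, Nrros, Rubcn, Noxo1, Cebpa and Cebpe (not called) and Prkca were named after their values were seen. The neighbours Gtf2ird2 and Daglb were named after their positions were seen, and further marker genes to describe the cells. GENCODE M21 had an entry for 14421 genes of the table and was used for names, coordinates and exon lengths. Some genes of the lists are not reported here, so that the genes described are not the whole complex and the counts over a list leave these out. On simulated data with 200 changed genes, limma recovered 94% of changes of log2 1 and 72% of 0.5 for HG against NG (14382 genes), with 3.49% false calls. For BMDM-HG-exo against BMDM-NG-exo (14408 genes) it recovered 93% and 71%. The tables used pandas 2.3.3 and numpy 2.4.6 in Python 3.11.15, and the figures matplotlib 3.10.9.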

Additional observations from a re-analysis of the deposited data

Results flagged for a closer look

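The Ncf1 count of 1 BMDM-HG-exo library, that of 01-08-20, was 22667 and stood apart from the other 3, of which the highest had 21839. It was the only one of 30 groups of 4 libraries with such a gap, and chance alone gives it in about 1 of 20 groups. The difference between the change in HG and that with BMDM-HG-exo against BMDM-NG-exo passed the test for Cybb (0.33), Ncf1 (0.31), Ncf4 (0.28) and Rac2 (0.33), as values of log2 fold change from limma in 1 fit.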

How the results depend on the processing

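The number of members called in HG against NG was 4 in each of 21 alternatives, and 0 in each of 26 for both BMDM-HG-exo vs BMDM-NG-exo and BMDM-HG-exo vs the combined controls. Against PBS it moved. With BMDM-NG-exo it was 0 without the trend, 2 without a fold limit and 1 to 2 when 1 library was left out. With BMDM-HG-exo it was 2 with quantile normalization, 2 without a fold limit and 1 to 3 when 1 library was left out. For the difference of effects it was 4 with each library left out, and 3 with the replicate block, with scaling to total reads or without the trend. With the replicate block (the date or library number) the log2 fold change of Cybb was 0.31 in HG (adjusted p = 4.93e-06), from the numbers 1 and 6 alone, and the block changed no call but that of Ncf4 in the difference of effects. Scaled to the longest transcript, levels per kb were 10513 for Cybb, 15763 for Cyba, 7635 for Ncf1, 2668 for Ncf4 and 2916 for Rac1.

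Signs turned for values near 0. With scaling to total reads, BMDM-HG-exo vs BMDM-NG-exo was 0.0074 for Cybb, 0.012 for Cyba, 0.029 for Ncf1, 0.025 for Ncf4 and 0.026 for Rac1. The same scaling gave 0.0098 for Rac1 against the combined controls and -0.0043 for Cyba and -0.0058 for Rac1 in the difference of effects. Ncf1 had 0.00036 with TMM factors and 0.0059 with quantiles. With 1 library left out, BMDM-HG-exo vs BMDM-NG-exo lay between -0.050 and 0.017 for Cyba, -0.020 and 0.029 for Ncf1, -0.036 and 0.021 for Ncf4, -0.019 and 0.011 for Rac1 and -0.030 and 0.054 for Rac2. The cause was not tested. Over all genes, HG against NG had 1116 genes higher and 798 lower, with quantiles 789 and 873, and with scaling to total reads 614 and 1327. The same scaling gave 320 higher and 302 lower for BMDM-HG-exo vs PBS, in place of 254 and 444, and 208 and 430 for the difference of effects, in place of 472 and 213 (322 and 290 with quantiles). Without the trend HG against NG had 654 calls in place of 1914, and with the replicate block 788. BMDM-HG-exo vs BMDM-NG-exo had 22 calls in place of 2 with the replicate block, and 22 by DESeq2. Against the combined controls, DESeq2 gave 127 calls in place of 29, and the fit of all 20 libraries gave 322. Depth limits little here, since each member had at least 2857 reads in a library.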
